A study of Mus musculus with 4 samples.

Results

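The genes described here encode secreted products that macrophages make in allergic, parasitic and lung settings: the chitinase-like proteins Chi3l3 and Chi3l4, the resistin-like protein Retnla, and the ribonucleases encoded by Ear1, Ear2, Ear4, Ear6, Ear7 and Ear10. They were taken by symbol, 9 of the 22700 rows in each library, and they had been picked with their levels in all 4 libraries known. Every contrast of them is therefore given as a description, with no test. Because all 9 were taken by name, no threshold separates them from other genes.

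Total RNA, depleted of ribosomal RNA and sequenced in pairs, came from marrow of male mice that were 12 weeks old. The mice were obese, type 2 diabetic db/db animals (BKS.Cg-m+/+leprdb/J), which lack a working long form of the leptin receptor, or non-diabetic db/+ littermates (BKS.Cg-m+/+leprdb+/J). All share the BKS background and the db allele, in 2 copies or in 1. Culture in 20 ng/ml GM-CSF or 10 ng/ml M-CSF lasted 7 to 8 days, which gives 4 groups of 1 library: GM-CSF db/db, GM-CSF db/+, M-CSF db/db and M-CSF db/+. The number of animals behind each library was not given in the sources used here, and with 1 library a group no difference had a replicate check. In RNA of whole cultures, fewer cells of a type and less RNA per cell cannot be told apart.

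Chi3l3 (also called Ym1, now Chil3) and Chi3l4 (Ym2, now Chil4) bind sugars but have no chitinase activity, and they are well known as products of mouse macrophages exposed to IL-4 or IL-13, acting through the transcription factor STAT6. Retnla (RELM-alpha, Fizz1) is a small cysteine-rich secreted protein of the resistin family and another standard mark of that state. The Ear genes are mouse genes of the RNase A family named after the eosinophil granule proteins. Several are also made by macrophages, among them lung alveolar macrophages, which need GM-CSF. Because the copies are close to one another in sequence, reads can fit more than 1 of them.

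The promoter windows are shown because most of these genes were high in the same libraries. They come from RefSeq on build GRCm38.p6, which is not the build named by the submitters, and they run from 250 bases before to 50 bases after the annotated start, 5′ to 3′ on the gene's own strand. Windows were found for 7 of the 9 genes; Ear4 and Ear7 had none. The 5 below are Chi3l3 (chr3:106167515-106167814, minus strand), Chi3l4 (chr3:106219430-106219729, minus strand), Retnla (chr16:48842359-48842658, plus strand), Ear2 (chr14:44102404-44102703, plus strand) and Ear1 (chr14:43819590-43819889, minus strand). Capitals mark matches to any of the 5 motifs searched on both strands: a STAT6-type palindrome (TTC and GAA around 4 free bases), TTCNNNGAA, TTGCNNAA, GAGGAA and TATAAA.
Chi3l3: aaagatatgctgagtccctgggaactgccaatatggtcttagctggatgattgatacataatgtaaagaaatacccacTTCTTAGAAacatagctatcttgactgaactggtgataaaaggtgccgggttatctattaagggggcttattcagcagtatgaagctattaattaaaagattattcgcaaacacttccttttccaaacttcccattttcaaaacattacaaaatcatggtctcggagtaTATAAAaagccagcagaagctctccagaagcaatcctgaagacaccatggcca
Chi3l4: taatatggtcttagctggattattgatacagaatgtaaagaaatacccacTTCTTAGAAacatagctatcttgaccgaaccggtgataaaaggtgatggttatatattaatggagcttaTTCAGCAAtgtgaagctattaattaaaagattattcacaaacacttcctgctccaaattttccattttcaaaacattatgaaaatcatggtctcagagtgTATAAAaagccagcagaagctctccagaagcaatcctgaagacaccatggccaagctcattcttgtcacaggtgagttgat
Retnla: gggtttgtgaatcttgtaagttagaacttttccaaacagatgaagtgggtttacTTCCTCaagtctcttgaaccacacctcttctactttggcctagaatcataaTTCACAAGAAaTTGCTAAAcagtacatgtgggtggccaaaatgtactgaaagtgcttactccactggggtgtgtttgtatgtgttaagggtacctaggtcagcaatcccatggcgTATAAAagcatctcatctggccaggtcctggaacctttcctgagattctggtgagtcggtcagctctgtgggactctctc
Ear2: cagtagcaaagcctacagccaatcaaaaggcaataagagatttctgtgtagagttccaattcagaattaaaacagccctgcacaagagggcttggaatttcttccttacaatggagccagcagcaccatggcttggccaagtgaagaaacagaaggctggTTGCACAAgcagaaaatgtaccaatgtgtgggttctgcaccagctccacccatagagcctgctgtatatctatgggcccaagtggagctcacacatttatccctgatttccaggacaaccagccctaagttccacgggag
Ear1: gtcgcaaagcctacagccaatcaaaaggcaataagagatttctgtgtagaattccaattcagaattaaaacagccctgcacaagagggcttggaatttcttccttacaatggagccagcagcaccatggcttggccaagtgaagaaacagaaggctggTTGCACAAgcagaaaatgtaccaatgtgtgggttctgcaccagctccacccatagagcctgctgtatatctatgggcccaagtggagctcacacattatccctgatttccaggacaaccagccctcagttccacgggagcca

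The STAT5-type palindrome TTCNNNGAA was present in Chi3l3 and Chi3l4, 172 and 200 bases before the start, and in 8.30% of the 32851 promoter windows of the same length. The STAT6-type palindrome was found in Retnla only, 145 bases before the start, against 6.95% of all windows. Next to it, without overlap, Retnla held the C/EBP-type motif TTGCNNAA. That motif was present in 5 of the 7 windows, Chi3l4, Retnla, Ear1, Ear2 and Ear10, and in 10.8% of all windows. In the Ear windows it lay 90 to 94 bases before the start. The Ear1, Ear2 and Ear10 windows are near copies, 92.6% to 98.7% identical, and those of Chi3l3 and Chi3l4 are 91.9% identical. Matches shared within these groups are therefore not independent, and the counts cannot be weighed against the share of all windows. The letters TATAAA stood in Chi3l4 and Retnla, 31 and 30 bases before the start, in Chi3l3, from 3 bases before the start and across it, and in 13.6% of all windows. The core GAGGAA was present in Retnla and in 28.3% of all windows. No match overlapped another, and Ear6 had none. A match is a run of letters, not a shown binding site.

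**Figure D1:**
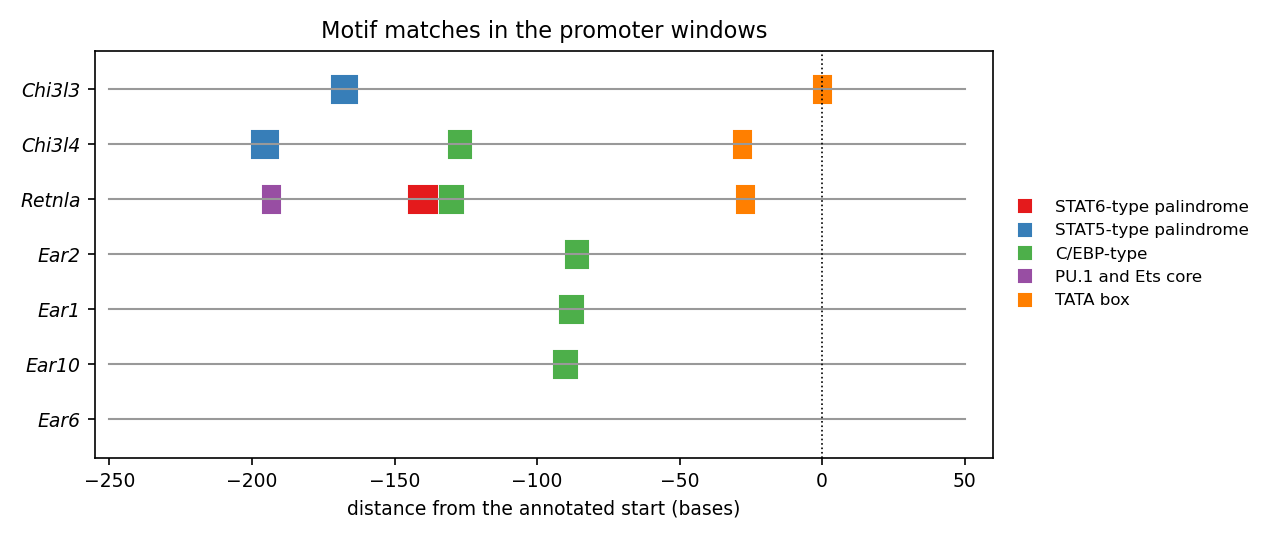
Motif matches in the promoter windows of the 7 genes with a window; the x axis is the distance from the annotated start in bases and each coloured box is 1 match. The Ear1, Ear2 and Ear10 windows share 1 C/EBP-type match at 90 to 94 bases before the start, and Ear6 has no match.

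Depth and purity bear on every value below. The libraries held 28622705, 27216114, 27590722 and 25603389 reads recovered from the deposited values, in the order GM-CSF db/db, GM-CSF db/+, M-CSF db/db and M-CSF db/+. Levels are normalised reads, that is reads after the authors' scaling, and 1 read was worth 0.871 to 1.12 of them. The macrophage markers Csf1r and Emr1 were abundant in every library. In the order above, Csf1r was at 33103, 33550, 105159 and 120627, and Emr1 at 11450, 11230, 97863 and 98661.5. Of 8 measured macrophage markers, 2 in db/db and 1 in db/+ were 2-fold or more higher in GM-CSF, and 3 in each 2-fold or more lower. Lyz2, named after its values were seen, was higher in GM-CSF, at 621787 against 242719 in db/db and 626680 against 250024 in db/+. Fibroblast and stromal markers summed to 333.5 and 299.5 in the GM-CSF libraries, against 73494 and 26624 in M-CSF db/db and M-CSF db/+. Lepr, the gene mutated in db mice, was at 60.3 and 49.4 in GM-CSF db/db and db/+, and at 21.8 and 6.7 in M-CSF db/db and db/+; the mutation alters splicing, so these totals do not check the genotype. Of 1123 olfactory receptor genes, which these cells should not use, 96 and 114 had a read in GM-CSF db/db and db/+, against 331 and 526 in M-CSF db/db and db/+.

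Chi3l3 and Chi3l4 were far higher in GM-CSF than in M-CSF cultures of both genotypes. Chi3l3 was at 32671.9 normalised reads in GM-CSF db/db and 32858.8 in GM-CSF db/+, against 1106.6 in M-CSF db/db and 1027.2 in M-CSF db/+. The ratio of GM-CSF over M-CSF was 29.5 in db/db marrow (95% interval 27.3 to 32.0) and 32.0 in db/+ marrow (29.4 to 34.9). Both GM-CSF libraries stood above both M-CSF libraries, and the genotypes stood side by side within each culture type. These intervals are exact conditional binomial intervals on read pairs and, like all intervals below, cover counting error only.

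Chi3l4, the near copy of Chi3l3, followed the same order at a lower level. It was at 6767.8 and 6908.9 normalised reads in GM-CSF db/db and db/+, against 159.4 and 153.1 in M-CSF db/db and db/+. Its ratio of GM-CSF over M-CSF was 42.5 in db/db (34.3 to 52.5) and 45.1 in db/+ (36.0 to 56.6). Of the reads on both genes, Chi3l4 took 17.2% in GM-CSF db/db and 17.4% in GM-CSF db/+, against 12.6% in M-CSF db/db and 13.0% in M-CSF db/+. The Wilson 95% intervals of those shares, 16.6% to 17.7% and 16.8% to 17.9% in GM-CSF against 10.4% to 15.3% and 10.6% to 15.9% in M-CSF, did not overlap between the culture types. The longest GENCODE transcripts of this pair have the same length of 1539 bases and 94.2% identity, and 18.5% of the 50-base windows of each occur in the other. Reads from those windows could belong to either gene, so the split between them is uncertain.

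Per length, Chi3l3 was the most abundant of the genes with a transcript in the reference. It was at 21229 normalised reads per kilobase in GM-CSF db/db, ahead of Ear2 at 5602, Chi3l4 at 4398, Ear6 at 2825, Ear10 at 301, Retnla at 178 and Ear1 at 54.3 in the same library. The order was the same in GM-CSF db/+, from 21351 for Chi3l3 to 77.1 for Ear1. In M-CSF the order per kilobase differed below Chi3l3: Chi3l4 came second, at 104 in db/db and 99.5 in db/+, and Ear2 was at 22.9 and 64.8. Retnla was at 0 in both M-CSF libraries.

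**Figure D2:**
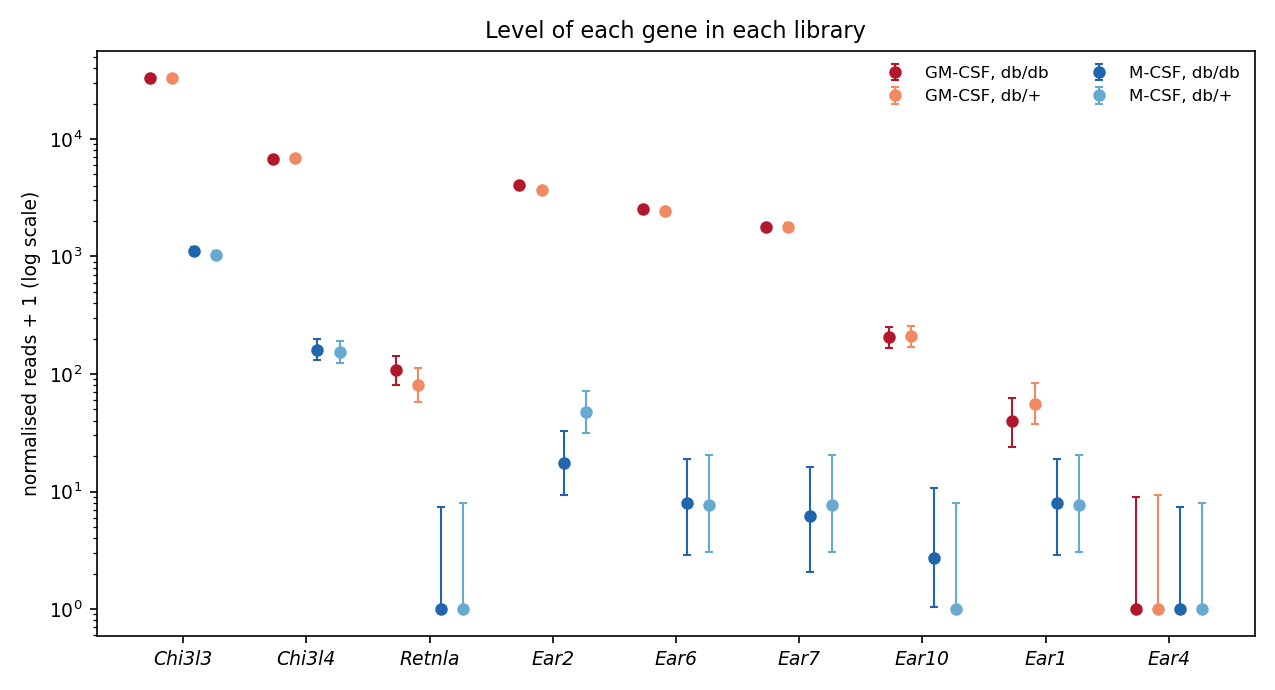
Normalised reads + 1 (log scale) of each gene in each of the 4 libraries; points are single libraries and bars are exact Poisson 95% intervals on read pairs, which cover counting error only. Both GM-CSF libraries lie above both M-CSF libraries for every gene except Ear4, which is at 0 in all 4.

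Retnla had reads in GM-CSF only. It was at 106.5 normalised reads in GM-CSF db/db and 79.6 in GM-CSF db/+, from 99 and 71 reads, and at 0 in M-CSF db/db and M-CSF db/+. With M-CSF set at a floor of 3 read pairs per library, 5.23 normalised reads in db/db and 5.71 in db/+, it was at least 20.4-fold higher in GM-CSF in db/db and at least 13.9-fold higher in db/+. That floor leaves out the counting error of the GM-CSF reads: the exact 95% intervals of the ratio started at 16.1 in db/db and 10.9 in db/+. The exact 95% Poisson upper limits for Retnla in M-CSF were 6.43 normalised reads in db/db and 7.02 in db/+. Even in GM-CSF it stood far below Chi3l3 per kilobase.

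The other resistin-like genes did not share this order. Retnlg, which neutrophils and their precursors make, was at 0 in both GM-CSF libraries, against 145.5 in M-CSF db/db and 146.5 in M-CSF db/+, so against the 3-pair floor GM-CSF was lower by at least 22.5-fold in db/db and by at least 21.8-fold in db/+. The exact 95% intervals of its ratio of GM-CSF over M-CSF reached up to 0.0554 in db/db and 0.0579 in db/+. Retn, which encodes resistin, was at 2.2 and 4.5 in GM-CSF db/db and db/+ and at 0 and 1.9 in M-CSF db/db and db/+. Retnlb, known from the gut, was at 0 in both GM-CSF libraries and at 0.9 and 3.8 in M-CSF db/db and db/+. Retn and Retnlb thus stayed under the 3-pair floor in every library.

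The Ear rows are described first as a group, since the copies share reads. Their sum was 8562.2 normalised reads in GM-CSF db/db and 8162.9 in GM-CSF db/+, against 37.4 in M-CSF db/db and 66.7 in M-CSF db/+. The ratio of GM-CSF over M-CSF was 229 in db/db (147 to 357) and 122 in db/+ (88.0 to 176). If the authors' counting gave a read to more than 1 copy, the sum counts it more than once. Ear3 and Ear12, outside this sum, held identical values in all 4 libraries, so the same reads can stand in more than 1 Ear row. Whether this holds for rows inside the sum is not known, since the counting method was not given in the sources used here. With the Ear2 row alone the ratio was 244 in db/db (125 to 483) and 79.5 in db/+ (52.6 to 121), so the value in db/+ moved by over 1.5 times.

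Ear2 held the most reads of the group in every library. It was at 4027.8 and 3706.8 normalised reads in GM-CSF db/db and db/+, against 16.5 and 46.6 in M-CSF db/db and db/+. Ear6 was at 2522.7 and 2415.9 in GM-CSF db/db and db/+, against 7.0 and 6.7 in M-CSF db/db and db/+, from 8 and 7 reads. Its ratio of GM-CSF over M-CSF was 360 in db/db (141 to 1331) and 361 in db/+ (124 to 1167), with the wide intervals set by the few M-CSF reads. Among 13642 genes that reached 20 normalised reads in at least 1 library, the log2 folds of the described genes ranked from 8 for Ear6 to 697 for Ear1 in db/db. In db/+ they ranked from 7 for Ear6 to 487 for Ear1. Nothing is read from these ranks, because the genes were chosen on these levels and Ear6 and Ear1 reached 20 through GM-CSF alone. Log2 folds were taken on log2(normalised reads + 5), which understates the change of low genes.

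Ear7 and Ear10 had the same order of libraries. Ear7 was at 1768.6 and 1777.7 normalised reads in GM-CSF db/db and db/+, against 5.2 and 6.7 in M-CSF db/db and db/+. Its ratio of GM-CSF over M-CSF was 340 in db/db (115 to 1644) and 265 in db/+ (90.9 to 860). Ear10 was at 204.4 and 207.5 in GM-CSF db/db and db/+, against 1.7, from 2 reads, in M-CSF db/db and 0 in M-CSF db/+. For Ear10 the ratio of GM-CSF over M-CSF in db/db was 120 (20.6 to 4681), and in db/+ the gene was at least 36.4-fold higher in GM-CSF against the 3-pair floor, with an exact 95% interval that started at 29.1.

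Ear1 and Ear4 did not share the high GM-CSF level. Ear1 was at 38.7 and 55.0 normalised reads in GM-CSF db/db and db/+, against 7.0 and 6.7 in M-CSF db/db and db/+, a ratio of GM-CSF over M-CSF of 5.53 in db/db (1.83 to 22.6) and 8.21 in db/+ (2.54 to 29.1). Ear4 was at 0 in all 4 libraries, and RefSeq's table holds no gene of that name. Ear1 and Ear2 nevertheless look alike in sequence: their promoter windows share 98.7% of aligned bases and their longest transcripts 96.4%. Ear10 is 92.6% identical to Ear2 in the promoter window and 94.5% in the transcript, and Ear6 86.2% and 83.2%. Per kilobase, Ear2 stood at 5602 and 5155 in GM-CSF db/db and db/+, and Ear1 at 54.3 and 77.1.

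How far the Ear copies can be told apart was read from the same transcripts. Of the 50-base windows of Ear2, 37.6% also occur in Ear1, Ear6 or Ear10, and for Ear10 the share is 32.8%. For Ear6 it is 1.07%. So a window of this length taken from Ear6 rarely matches another listed copy exactly, while 28.6% of those of Ear1 do. Ear7 has no transcript in the reference under that symbol and could not be placed. How reads with several matches were treated is not stated in the labels.

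The make-up of the Ear signal was alike in the GM-CSF libraries, and in M-CSF Ear1 took a larger share. Ear2, Ear6, Ear7, Ear10 and Ear1 took 47.0%, 29.5%, 20.7%, 2.39% and 0.452% of the Ear reads in GM-CSF db/db. In GM-CSF db/+ the same rows took 45.4%, 29.6%, 21.8%, 2.54% and 0.673%. M-CSF db/db had 43 Ear reads in all, of which Ear2 took 44.2% (26.9% to 65.3%), Ear6 and Ear1 18.6% each (7.31% to 38.5%), Ear7 14.0% (4.75% to 33.3%) and Ear10 4.65% (0.807% to 21.8%). M-CSF db/+ had 70, of which Ear2 took 70.0% (54.9% to 83.7%), Ear6, Ear7 and Ear1 10.0% each (4.54% to 26.0%) and Ear10 0% (up to 9.89%). The intervals for Ear1 in M-CSF lay above those in GM-CSF, 0.286% to 0.714% in db/db and 0.466% to 1.01% in db/+. In db/db the intervals of Ear2, Ear6, Ear7 and Ear10 overlapped between the culture types; in db/+ those of Ear7 and Ear10 overlapped and those of Ear2 and Ear6 did not.

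**Figure D3:**
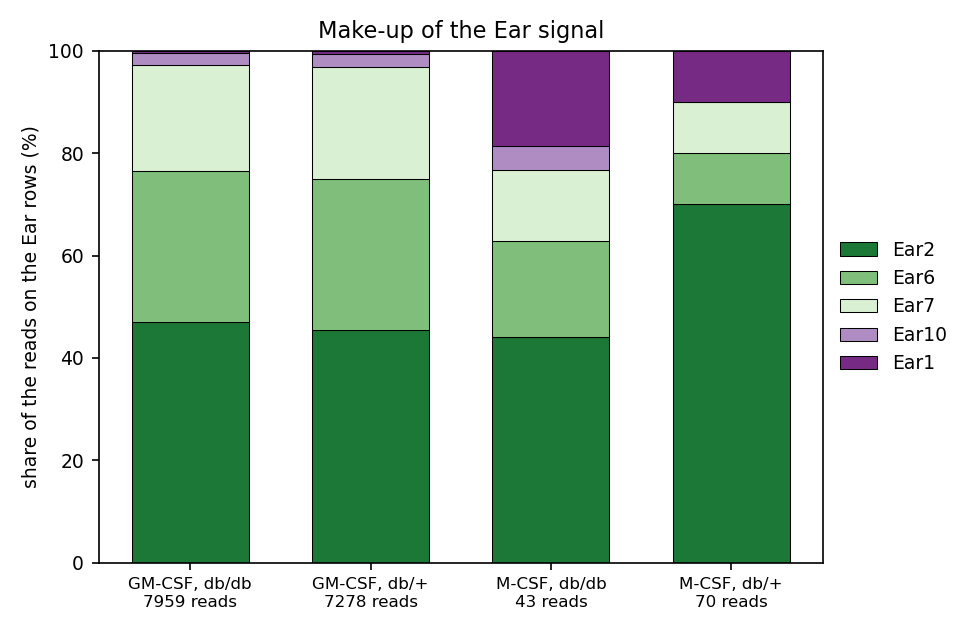
Share of the reads on the Ear rows (%) held by each copy in each library, with the number of Ear reads under each bar. Ear2 takes the largest share everywhere, 44.2% to 70.0%, and Ear1 is visible only in the M-CSF bars, which rest on 43 and 70 reads.

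Of the 9 genes, 8 reached the minimum of 20 normalised reads in a library, and all 8 were higher by 2-fold or more in GM-CSF than in M-CSF in each genotype. Over all 13642 genes, 11.3% in db/db and 12.0% in db/+ were higher by that much and 15.8% and 15.7% lower, or 27.1% and 27.6% in either direction. Nothing is read from that count, because the genes were chosen on these levels and 5 of the 8 reached the minimum through GM-CSF alone. The median log2 fold of all genes was 0.01 in db/db and 0.03 in db/+.

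GM-CSF levels of Chi3l3, Chi3l4 and the Ear sum were close between the genotypes, while those of Retnla and Ear1 were too uncertain to say. The ratio of db/db over db/+ in GM-CSF was 0.994 for Chi3l3 (0.972 to 1.02), 0.980 for Chi3l4 (0.932 to 1.03) and 1.34 for Retnla (0.851 to 2.10). For the Ear sum it was 1.05 (1.003 to 1.10), and for Ear2 alone 1.09 (1.02 to 1.16). Ear6, Ear7 and Ear10 had ratios of 1.04 (0.961 to 1.14), 0.995 (0.901 to 1.10) and 0.985 (0.728 to 1.32), and Ear1 0.704 (0.355 to 1.32). The intervals of Retnla and Ear1 hold 1 but also allow a 2-fold gap. Of the 8 genes that reached the minimum, 0 were 2-fold or more apart, against 1.06% of all genes, 0.586% higher and 0.476% lower.

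In M-CSF cultures the chitinase-like genes again matched closely between genotypes, while Ear2 was lower in db/db. The ratio of db/db over db/+ in M-CSF was 1.08 for Chi3l3 (0.959 to 1.21) and 1.04 for Chi3l4 (0.763 to 1.42). Ear2 was at 16.5 normalised reads in M-CSF db/db, from 19 reads, and at 46.6 in M-CSF db/+, from 49 reads, a ratio of 0.354 (0.157 to 0.790). It was the 1 of the 8 that was 2-fold or more apart, against 5.83% of all genes, 5.05% higher and 0.777% lower. Only 3 of the 8, Chi3l3, Chi3l4 and Ear2, reached the minimum in an M-CSF library. The other 5 reached it through GM-CSF alone and had at most 8 reads in M-CSF, so nothing is read from that count. The Ear2 call was lost with a pseudocount of 20, where its log2 fold was -0.87 against -1.26 with 5. The Ear sum had a ratio of 0.561 (0.322 to 1.01), an interval that holds 1. Ear6 and Ear1, each on 8 reads in M-CSF db/db and 7 in M-CSF db/+, could not show a difference at this depth, and their ratio of 1.04 had an interval of 0.171 to 4.92. The library in which Ear2 was lower also had fewer olfactory receptor genes with reads, 331 against 526, and a higher stromal sum, 73494 against 26624; their part in the result was not tested.

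**Figure D4:**
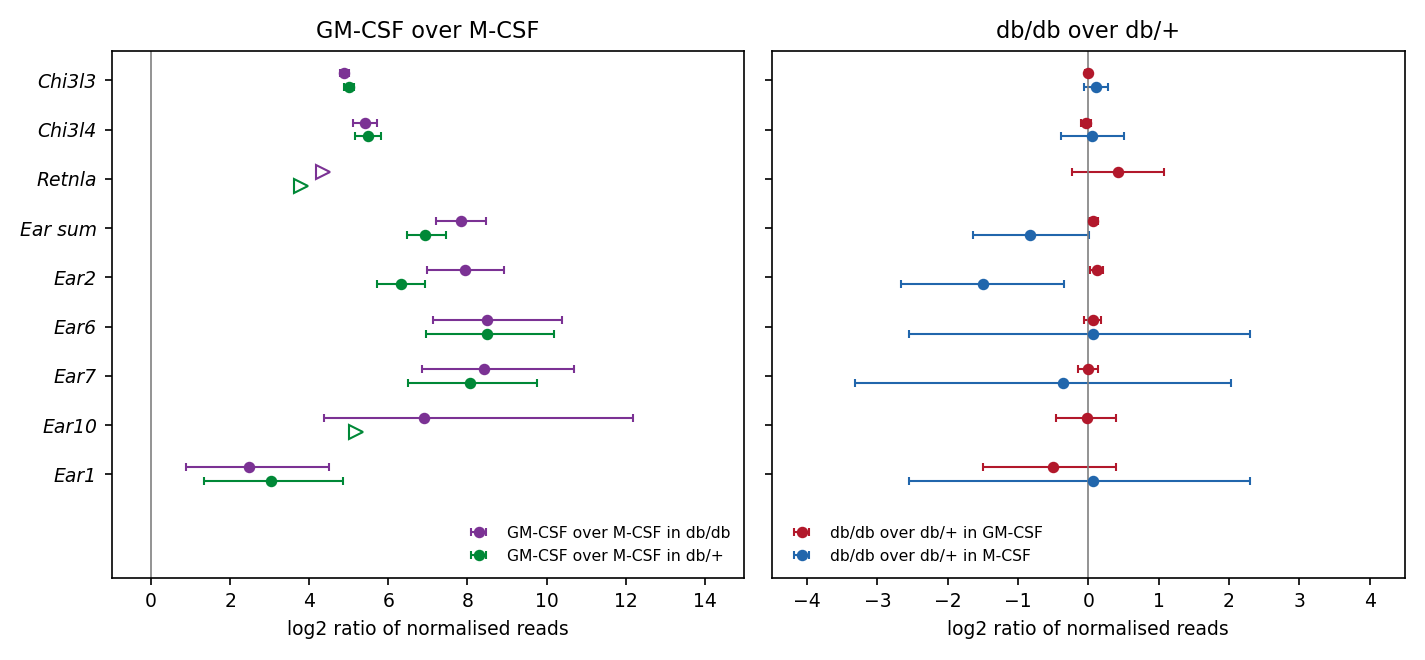
Log2 ratio of normalised reads for GM-CSF over M-CSF (left) and db/db over db/+ (right); points are ratios of single libraries, bars are exact 95% counting intervals, and open arrowheads are lower bounds against a library at 0, computed with 3 read pairs. All culture ratios lie above 0, while the genotype intervals include 0 except for Ear2 in both cultures and the Ear sum in GM-CSF.

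The rest of each family was set beside these genes. Its counts between culture types, and those of every list below, are read against all genes: 11.3% in db/db and 12.0% in db/+ were 2-fold or more higher in GM-CSF, and 15.8% and 15.7% lower. In the chitinase family 4 of 6 measured relatives reached the minimum, 0 were 2-fold or more higher in GM-CSF and 1 was lower in both genotypes. That was Chi3l1 (BRP-39), another chitinase-like protein, at 5.4 and 1.1 normalised reads in GM-CSF db/db and db/+, against 128.9 and 142.7 in M-CSF db/db and db/+. The enzymes with chitinase activity were not detectable at this depth: Chia was at 0 in all 4 libraries, and Chit1 at 0 in both GM-CSF libraries and at 0.9 and 1.9 in M-CSF db/db and db/+. Chid1 was at 1445.9 and 1253.9 in GM-CSF db/db and db/+, against 1399.4 and 1380.1 in M-CSF db/db and db/+.

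In the RNase A family 6 of 19 measured relatives reached the minimum; 3 were 2-fold or more higher in GM-CSF in db/db and 4 in db/+, with 0 lower. Those highest were other Ear rows. Ear3 and Ear12 had identical values in all 4 libraries, 2978.9 and 2698.5 normalised reads in GM-CSF db/db and db/+ against 13.9 and 39.0 in M-CSF db/db and db/+, so they are 1 measurement that the counts above hold as 2 rows. Their ratio to Ear2 was 0.740 and 0.728 in GM-CSF db/db and db/+ and 0.842 and 0.837 in M-CSF db/db and db/+, a narrow range. Ear11, now Rnase2a, was at 969.3 and 862.5 in GM-CSF db/db and db/+, against 1.7 and 5.7 in M-CSF db/db and db/+; its transcript shares no 50-base window with those of Ear1, Ear2, Ear6 or Ear10. Rnase4, a ribonuclease found in many tissues, was at 4193.5 and 4228.3 in GM-CSF db/db and db/+, against 2103.4 and 2016.4 in M-CSF db/db and db/+. Rnase6, an antimicrobial ribonuclease of myeloid cells, was at 176.4 and 176.1 in GM-CSF db/db and db/+, against 162.9 and 156.9 in M-CSF db/db and db/+, a ratio of GM-CSF over M-CSF of 1.08 in db/db (0.791 to 1.46) and 1.12 in db/+ (0.814 to 1.55).

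Chi3l3, Chi3l4 and Retnla are classic readouts of IL-4 and IL-13, so the pathway's own genes were listed. Il4 was at 2.2 and 3.4 normalised reads in GM-CSF db/db and db/+ and at 1.7 and 1.9 in M-CSF db/db and db/+, and Il13 at 0 in both GM-CSF libraries and at 0.9 and 1.9 in M-CSF db/db and db/+, all under the 3-pair floor. Of the 13 measured genes 10 reached the minimum, and 5 in db/db and 4 in db/+ were 2-fold or more higher in GM-CSF, with 0 and 1 lower. The median log2 fold was 0.81 in db/db and 0.54 in db/+, against 0.01 and 0.03 over all genes. Klf4, a transcription factor that works with STAT6 in macrophages, was at 600.3 and 651.6 in GM-CSF db/db and db/+, against 88.9 and 98.0 in M-CSF db/db and db/+. Il2rg, the shared receptor chain, was at 4420.5 and 4305.7 in GM-CSF db/db and db/+, against 1122.3 and 1505.7 in M-CSF db/db and db/+. Irf4, a factor of alternative activation, was at 3020.8 and 3139.3 in GM-CSF db/db and db/+, against 883.5 and 1013.9 in M-CSF db/db and db/+. Klf4, Il2rg and Irf4 were named for having the 3 largest folds. The receptor gene Il4ra and Jak3, named after their values were seen, were lower in GM-CSF. For Il4ra the ratio of GM-CSF over M-CSF was 0.612 in db/db (0.580 to 0.646) and 0.563 in db/+ (0.532 to 0.596). For Jak3 it was 0.510 in db/db (0.420 to 0.619) and 0.350 in db/+ (0.281 to 0.434). Il13ra1, another receptor gene of the list and also named after its values were seen, was higher in GM-CSF. Its ratio was 2.69 in db/db (2.44 to 2.97) and 3.40 in db/+ (3.03 to 3.82), so the receptor genes went both ways.

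Other genes of alternative activation were split. Of 21 measured, 20 reached the minimum; 11 in db/db and 13 in db/+ were 2-fold or more higher in GM-CSF, and 5 in each were 2-fold or more lower, with median log2 folds of 2.41 and 1.77. The largest folds were those of Ccl17, a chemokine for T cells, at 2964.9 and 3162.8 normalised reads in GM-CSF db/db and db/+ against 1.7 and 2.8 in M-CSF db/db and db/+. Arg1, arginase 1, was at 14108.0 and 14048.8 in GM-CSF db/db and db/+, against 30.5 and 52.3 in M-CSF db/db and db/+. Pdcd1lg2, which encodes the checkpoint ligand PD-L2, was at 1024.2 and 1095.8 in GM-CSF db/db and db/+, against 13.1 and 15.2 in M-CSF db/db and db/+. The 5 that were lower, named after their values were seen, were Mrc1, Cd163, Clec10a, Tfrc and Ccl24. Mrc1, the mannose receptor, was at 7951.2 and 8661.9 in GM-CSF db/db and db/+, against 22021.5 and 20069.4 in M-CSF db/db and db/+.

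Genes of GM-CSF-dependent alveolar macrophages stood mostly on the GM-CSF side. Of 20 that reached the minimum, among 23 measured, 17 in db/db and 16 in db/+ were 2-fold or more higher in GM-CSF and 0 lower. All genes had 11.3% and 12.0% higher and 15.8% and 15.7% lower. The list's median log2 folds were 2.86 and 2.71. Abca1, named after its values were seen, was lower in GM-CSF by less than 2-fold, with log2 folds of -0.98 in db/db and -0.94 in db/+. Car4, a carbonic anhydrase, was at 414.2 and 445.3 normalised reads in GM-CSF db/db and db/+ and at 0 in both M-CSF libraries. Itgax, the integrin CD11c, was at 56258.8 and 56041.7 in GM-CSF db/db and db/+, against 921.0 and 775.2 in M-CSF db/db and db/+. It is also on the list of dendritic cell markers, so it does not mark 1 cell type. Of 10 dendritic cell markers, 4 in each genotype were 2-fold or more higher in GM-CSF, and 2 in db/db and 3 in db/+ lower. Which cells carried these transcripts was not tested. Siglec5, the mouse lectin Siglec-F of alveolar macrophages and eosinophils, was at 1308.2 and 1305.5 in GM-CSF db/db and db/+, against 34.0 and 19.0 in M-CSF db/db and db/+. Of 7 targets of STAT5, the factor that GM-CSF activates, 4 in db/db and 5 in db/+ were 2-fold or more higher and 1 and 0 lower, with median log2 folds of 1.43 and 1.53. Cish, a feedback inhibitor of cytokine receptors, was at 1140.3 and 1033.0 in GM-CSF db/db and db/+, against 37.5 and 26.6 in M-CSF db/db and db/+. Socs2, another such feedback gene, was at 1492.1 and 1461.4 in GM-CSF db/db and db/+, against 89.7 and 66.6 in M-CSF db/db and db/+. Pim1, a kinase, was at 5766.3 and 5701.0 in GM-CSF db/db and db/+, against 900.1 and 962.6 in M-CSF db/db and db/+. These 3 were named for having the largest folds, so nothing is read from their shared direction. Id1, named after its values were seen, was lower in GM-CSF, at 61.3 and 65.1 in db/db and db/+ against 164.7 and 86.6 in M-CSF. Osm was at 338.9 and 362.3 in GM-CSF db/db and db/+, against 282.3 and 306.3 in M-CSF db/db and db/+.

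Markers of the granulocytes that also make these proteins did not all stand on 1 side. Of 10 measured eosinophil markers 6 reached the minimum, 2 being 2-fold or more higher in GM-CSF and 3 lower in each genotype, with median log2 folds of -0.55 in db/db and -0.59 in db/+. All 10 summed to 1449.1 and 1451.5 normalised reads in GM-CSF db/db and db/+, against 432.2 and 409.0 in M-CSF db/db and db/+, most of the GM-CSF sum being Siglec5. Siglec5 was left out after its values were seen, because it was high in GM-CSF, so nothing is read from the changed order. Without Siglec5 the other 9 summed to 140.9 and 146.0 normalised reads in GM-CSF db/db and db/+, against 398.2 and 390.0 in M-CSF db/db and db/+. Prg2, major basic protein of the eosinophil granule, was at 4.3 and 2.3 in GM-CSF db/db and db/+, against 128.1 and 123.6 in M-CSF db/db and db/+. Ccr3, the eotaxin receptor, was at 0 and 2.3 in GM-CSF db/db and db/+, against 164.7 and 144.6 in M-CSF db/db and db/+. Il5, Il5ra and Prg3 were at 0 in both GM-CSF libraries. Alox15, a lipoxygenase that macrophages also make, was at 58.1 and 70.7 in GM-CSF db/db and db/+, against 7.0 and 18.1 in M-CSF db/db and db/+. Cebpe, a transcription factor of granulocyte development, was at 71.0 and 67.3 in GM-CSF db/db and db/+, against 49.7 and 67.5 in M-CSF db/db and db/+. The list thus split between markers, and its part in the Ear levels was not tested.

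Neutrophil markers bear on Chi3l3 and Retnlg, which neutrophil precursors also express. Of 14 measured, 12 were 2-fold or more lower in GM-CSF and 1, the collagenase gene Mmp8, was higher in each genotype, with median log2 folds of -4.77 in db/db and -4.83 in db/+. All 14 summed to 25186.7 and 23668.7 normalised reads in GM-CSF db/db and db/+, against 19073.5 and 18408.6 in M-CSF db/db and db/+, most of the GM-CSF sum being Mmp8. Mmp8 too was left out after its values were seen, because it was high in GM-CSF, so nothing is read from the changed order. Without Mmp8 the other 13 summed to 1051.2 and 912.0 normalised reads in GM-CSF db/db and db/+, against 17801.3 and 17125.5 in M-CSF db/db and db/+. Mpo, myeloperoxidase, was at 0 and 1.1 in GM-CSF db/db and db/+, against 1373.2 and 1447.7 in M-CSF db/db and db/+. The M-CSF level of Chi3l3 thus stood beside neutrophil transcripts, and their part in it was not tested. Of 11 measured mast cell and basophil markers 6 reached the minimum, 4 being 2-fold or more lower and 1, the stem cell factor receptor Kit, higher in GM-CSF in each genotype, with median log2 folds of -2.27 in db/db and -2.65 in db/+. All 11 summed to 2585.2 and 2637.9 in GM-CSF db/db and db/+, against 408.6 and 389.0 in M-CSF db/db and db/+. Without Kit, left out after its values were seen, the other 10 summed to 45.2 and 23.5 in GM-CSF db/db and db/+. In M-CSF db/db and db/+ those 10 summed to 302.3 and 283.4. Kit was left out because it was high in GM-CSF, so nothing is read from this changed order either.

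**Figure D5:**
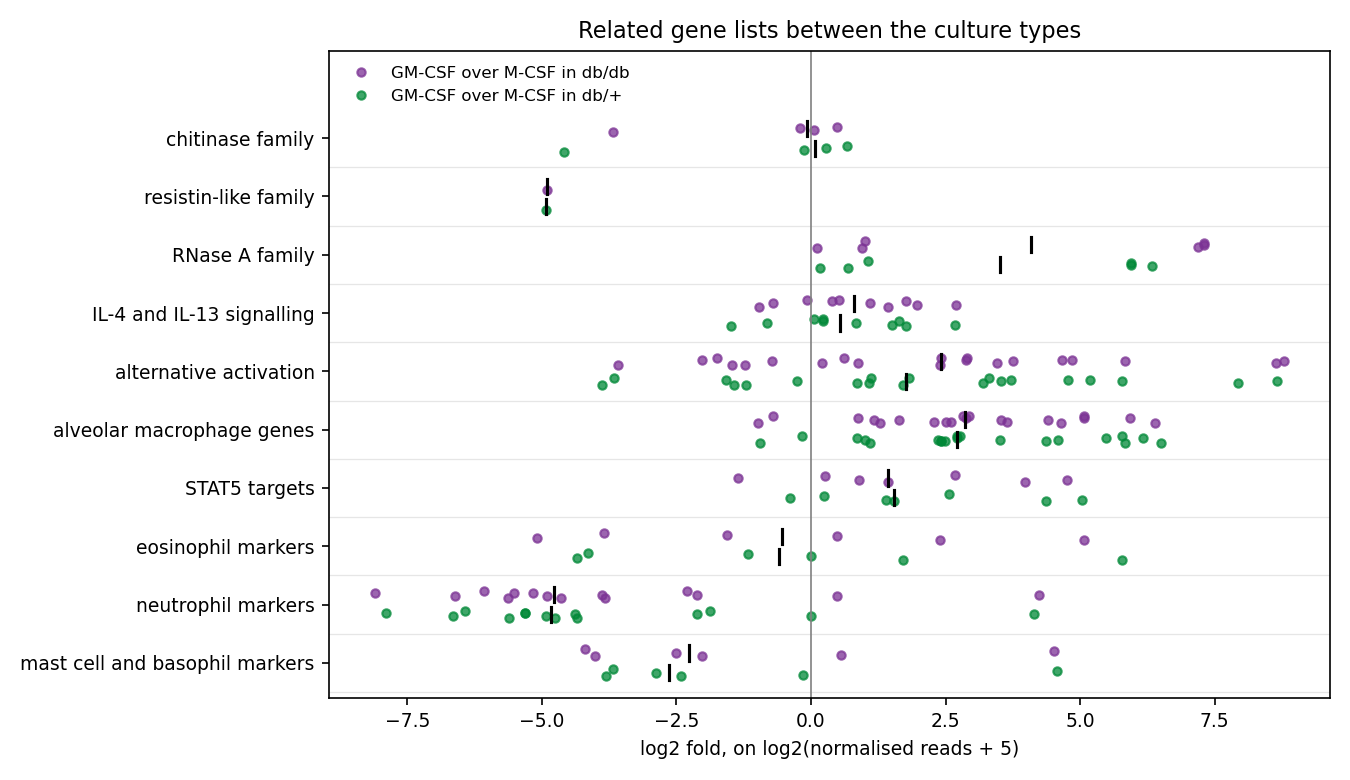
Log2 fold of GM-CSF over M-CSF for genes of 10 lists, in db/db (purple) and db/+ (green); each point is 1 gene that reached 20 normalised reads in a library, and black bars are list medians. Libraries at 0 stand at the pseudocount of 5, the Ear rows make the right-hand group of the RNase A family, and the neutrophil medians lie at -4.77 and -4.83.

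Between genotypes the lists are read against the 1.06% of all genes in GM-CSF and 5.83% in M-CSF that were 2-fold or more apart. In GM-CSF 0 of the genes that reached the minimum in the chitinase, resistin-like and RNase A families, IL-4 and IL-13 signalling, the alveolar macrophage genes, the STAT5 targets or the eosinophil, neutrophil and mast cell markers were 2-fold or more apart, and 1 of 20 alternative activation genes was, Ccl24, at 8.6 in GM-CSF db/db against 0 in GM-CSF db/+. Of 10 fibroblast and stromal markers that reached the minimum, 9 were 2-fold or more higher in db/db in M-CSF and 1 in GM-CSF. In M-CSF 2 of 6 RNase A relatives were 2-fold or more lower in db/db, the identical rows Ear3 and Ear12. The alveolar macrophage list had 2 genes 2-fold or more higher in M-CSF db/db, named after their values were seen: Ctsk, at 411.3 in M-CSF db/db against 179.8 in M-CSF db/+, and Marco, at 115.0 against 48.5.

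The genes whose 4 library levels lay nearest to those of Chi3l3 were Cd38, Vwf, Egln3, D10Bwg1379e and Bcl2a1a. Nearness was the Euclidean distance between log2 levels centred on their mean, over 4 libraries and 10141 genes that reached 200 normalised reads, and it was 0.07 for Cd38 to 0.16 for Bcl2a1a. Cd38, an enzyme that uses NAD, was at 1144.7 and 1202.3 normalised reads in GM-CSF db/db and db/+, against 34.8 and 30.4 in M-CSF db/db and db/+. For Retnla the nearest were Oit3, Mmp8, Hs3st3b1, Bcl2a1d and Slco4a1, at distances of 0.21 to 0.30, a placement that depends on the pseudocount because Retnla was at 0 in M-CSF. For the Ear sum they were Klk1b11, F7, Ccl6, Ear11 and 1600029D21Rik, at distances of 0.18 to 0.56. Klk1b11, a kallikrein of a multigene family whose copies can share reads, was at 7808.1 and 7298.1 in GM-CSF db/db and db/+, against 39.2 and 65.6 in M-CSF db/db and db/+. Ccl6, a macrophage chemokine, was at 334669 and 312883 in GM-CSF db/db and db/+, against 1490.0 and 1985.1 in M-CSF db/db and db/+. With 4 points, set mostly by the culture difference, nearness says little beyond the size of that difference. The M-CSF values were not near-equal for the Ear sum, at 37.4 in db/db against 66.7 in db/+. Its nearest genes were also lower in M-CSF db/db, F7 for 1 at 18.3 against 34.2. The distance itself selects genes with that shape, so nothing is read from it.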

How the data were processed

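The deposited files hold 1 normalised signal per gene, which the authors made by dividing read counts by 1 factor per library; the file names say TMM. Tools named in the submitters' processing notes are TopHat 1.2.0 and edgeR, with builds mm8 and mm9; counting tool, annotation and filters were not given in the sources used here. Values came in steps of 1 read, so whole reads were recovered: within 0.1 normalised reads, 100% of low values and at least 99.9% of all values above 0 came out whole. Even read numbers were commoner at low counts, so mates appear to be counted separately, and intervals used read pairs, rounding an odd read up to a pair. The 3-pair floor was 6.45, 6.73, 5.23 and 5.71 normalised reads in GM-CSF db/db, GM-CSF db/+, M-CSF db/db and M-CSF db/+.

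Log2 folds used a pseudocount of 5 and a minimum of 20 normalised reads in at least 1 library; lists and named genes followed a written rule: all 9 genes, their families, the 3 largest folds of each pathway list, the marker lists' defining genes and the 5 nearest profiles. The genes and lists were chosen with earlier results of these data known. Macrophage, dendritic, stromal, T cell and type 2 innate lymphoid markers were also counted, of which 8, 10, 10, 1 and 2 reached the minimum. In db/db marrow 2, 4, 0, 0 and 1 had a GM-CSF level 2-fold or more higher and 3, 2, 10, 1 and 1 a lower one. In db/+ marrow 1, 4, 0, 0 and 1 were higher and 3, 3, 10, 1 and 1 lower. As an alternative added after seeing the data, edgeR 4.0.16 quasi-likelihood tests on the recovered reads, in an additive model with 1 residual degree of freedom, called 7746 of 13642 genes for culture and 103 for genotype at an adjusted p under 0.05; no such p is given for the genes described. Step recovery, folds and intervals were tested on simulated data. Transcripts came from GENCODE and motifs from RefSeq promoters, both on GRCm38, read with Biopython 1.88. Per-sample columns left unused numbered 0.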

Additional observations from a re-analysis of the deposited data

Results flagged for a closer look

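Ear2 differed in direction between the culture types: the ratio of db/db over db/+ was 0.354 in M-CSF, from 19 and 49 reads, and 1.09 in GM-CSF, from 3744 and 3305 reads. With a pseudocount of 20 the M-CSF log2 fold of -0.87 was no longer 2-fold. Each counting interval left out 1, but each culture type holds 1 library per genotype, and the difference between the ratios was not tested.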

How the results depend on the processing

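No paired analysis was possible because each group has 1 library, so the groups share no replicate numbers to block on, and no replicate could be left out; the additive edgeR model, with genotype and culture as terms, is the nearest fit. The count of the described genes 2-fold or more higher in GM-CSF was 8 in each genotype under pseudocounts of 1 and 20, scaling to total counts and no filter. With a minimum of 200 it was 6, because Retnla, at most at 106.5, and Ear1, at most at 55.0, did not reach that minimum. In M-CSF the count apart between genotypes was 1, but 2 with a pseudocount of 1 and 0 with 20, where Ear2 was at -0.87 against -1.26. Scaling to total counts moved the median log2 fold of all genes to -0.34 in db/db and -0.29 in db/+ for GM-CSF over M-CSF, and calls on the higher side from 41.8% to 27.5% in db/db and from 43.3% to 29.2% in db/+; the log2 fold of Chi3l3 was then 4.52 in db/db and 4.67 in db/+, and that of the Ear sum 7.32 and 6.52. With Ear2 alone in place of the Ear sum, chosen after seeing the data, the GM-CSF over M-CSF log2 fold in db/+ was 6.17 against 6.83. Counts of all genes apart were 2225 in db/db and 2318 in db/+ for GM-CSF over M-CSF with a minimum of 200, against 3702 and 3771. For db/db over db/+ in M-CSF they were 471 with a pseudocount of 20, 1366 with no filter and 334 with a minimum of 200, against 795; in GM-CSF they were 560 and 1 with pseudocounts of 1 and 20, 316 with no filter and 13 with a minimum of 200, against 145. With single reads as the counted unit, 1 of 35 intervals changed: that of the Ear sum in M-CSF, db/db over db/+, became 0.376 to 0.834 and left out 1. Of 505 values recomputed, 0 reversed, but 12 headline values and 34 others changed enough to be marked as moved. Many of the 505 are counts of genes, which have no direction and could not reverse. The 0 is therefore no check of those counts. Depth limits the Ear rows in M-CSF, which rest on 43 reads in db/db and 70 in db/+.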
